A study of Mus musculus with 6 samples.

Results

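The Gcnt2 interval, chr13:40930001-41080000 on mouse build mm9, was described in LSK cells of Tet2/3 DKO mice and of WT mice. It held 1808 of the 20451903 CpGs listed for the whole genome, in 149 of its 150 windows of 1 kb. The interval was chosen by its measured CpG levels, because stretches of several kb in it were higher in DKO than in WT. The levels given here are therefore a description of a chosen place, without a test, and every comparison states the spread of the samples instead. LSK cells are bone marrow cells that lack mature lineage markers and carry Sca-1 and c-Kit on their surface, a mixture of blood stem cells and multipotent progenitors. They were sorted after magnetic depletion of lineage-positive cells. There were 3 DKO samples (genotype Tet2/3 DKO) and 3 WT samples, each labelled as a biological replicate. The labels give neither the alleles, the Cre driver nor the age of the mice, and they do not say whether a sample came from a single animal. The deposited table holds methylation alone, so the sorted cell type could not be checked by marker expression.

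Gcnt2 encodes the I-branching enzyme, a glycosyltransferase that adds branches to chains of N-acetyllactosamine on glycoproteins and glycolipids and so makes the I antigen of blood cells. The gene has several alternative first exons, each with a start site of its own, that are spliced to common last exons. TET proteins oxidise 5-methylcytosine, a step towards its removal, and active promoters and enhancers are usually low in CpG methylation. Whole-genome bisulfite sequencing reads 5-methylcytosine and 5-hydroxymethylcytosine alike, so a level is the sum of both marks. A level here is the percentage of reads that are methylated, with each read counted at each CpG it covers. It is also a mean over all cells of a sample, so a change in every cell and a change in the make-up of the sorted cells cannot be told apart.

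Gcnt2 has 3 start sites in the RefSeq promoter table (GRCm38.p6), and all 3 could be placed on the mm9 positions of the deposited table by the spacing of their CpGs. The CpGs of the 3 sequences, 8, 6 and 13 in number, were all listed at exactly the expected distances, at 1 place on chromosome 13 each. Transcription runs towards higher coordinates from all of them. The sequences are shown because the methylation pattern of the locus is laid out around them. Each covers 250 bases before the start site and 50 from it on, with every CpG in capitals. Start 1 lies at base 40955137 (sequence chr13:40954887-40955186), start 2 at base 40982127 (chr13:40981877-40982176) and start 3 at base 41013003 (chr13:41012753-41013052).
Gcnt2 start 1: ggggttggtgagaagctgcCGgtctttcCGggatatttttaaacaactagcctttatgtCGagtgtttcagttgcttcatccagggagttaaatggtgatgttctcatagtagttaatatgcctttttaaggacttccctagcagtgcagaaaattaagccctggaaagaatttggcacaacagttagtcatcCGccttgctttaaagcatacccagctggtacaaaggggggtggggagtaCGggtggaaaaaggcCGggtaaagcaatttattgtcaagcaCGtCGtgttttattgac
Gcnt2 start 2: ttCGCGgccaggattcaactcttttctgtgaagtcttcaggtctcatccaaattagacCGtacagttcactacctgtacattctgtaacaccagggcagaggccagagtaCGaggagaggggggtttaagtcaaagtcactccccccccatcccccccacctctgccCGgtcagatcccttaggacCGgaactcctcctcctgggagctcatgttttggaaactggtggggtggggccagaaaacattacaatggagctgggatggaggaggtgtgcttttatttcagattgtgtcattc
Gcnt2 start 3: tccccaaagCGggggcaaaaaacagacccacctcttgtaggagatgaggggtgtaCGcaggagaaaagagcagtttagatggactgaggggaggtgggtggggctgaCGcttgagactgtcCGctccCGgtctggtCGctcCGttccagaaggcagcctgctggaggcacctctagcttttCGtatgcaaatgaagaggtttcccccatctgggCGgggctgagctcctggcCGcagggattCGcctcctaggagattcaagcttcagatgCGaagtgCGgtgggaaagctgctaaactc
The ratio of observed to expected CpGs, which is low where CpGs have been lost, was 0.559, 0.292 and 0.529 in these sequences from start 1 to start 3. The G and C content was 44.7%, 52.3% and 58.0%. A lncRNA gene, Gm31683, could be placed too. It is transcribed the opposite way, from base 41013138, just past Gcnt2 start 3. No exon or intron annotation of mm9 was used here, so whether a given stretch is exonic, intronic or untranslated is not stated.

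Depth was low at single CpGs, so reads were summed over windows. The DKO samples held 101957758, 111763872 and 83560585 read calls at CpGs genome-wide, a mean depth of 4.99, 5.46 and 4.09 per CpG, and the WT samples held 70917633, 72747248 and 70815948, a mean depth of 3.47, 3.56 and 3.46. In the interval they held 9466, 10789 and 7527 calls in DKO and 6412, 6474 and 6665 in WT. The depth of the interval was 0.996 to 1.07 times the autosomal mean in DKO and 0.985 to 1.04 times in WT. As a check of the genotype, runs of adjacent windows had lost their reads in DKO at chr3:133132001-133136000 (0, 0 and 0 reads in DKO, 109, 165 and 136 in WT) and at chr6:83352001-83355000 (14, 0 and 0 reads in DKO, 208, 231 and 169 in WT), on the chromosomes that carry Tet2 and Tet3. Mitochondrial CpGs, a measure of incomplete conversion, were at 1.71% ± 0.170 in DKO and 1.28% ± 0.0797 in WT (SD, n = 3 each).

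The whole interval was more methylated in DKO. Its level was 73.0%, 73.8% and 73.3% in the DKO samples and 63.8%, 63.8% and 60.8% in the WT samples. The groups did not overlap, and their means differed by 10.6 ± 1.04 points (SE, n = 3 each). Over all autosomes the levels were 81.6% ± 0.826 in DKO and 80.8% ± 0.314 in WT (SD, n = 3 each). A 1 kb window counted as measured if each of the 6 samples had 20 or more reads in it and it held 3 or more CpGs. It counted as gained if the DKO mean exceeded the WT mean by 20 points or more and the lowest DKO sample exceeded the highest WT sample. Of the 150 windows, 1 had no CpG, 53 had too few reads and 96 were measured. Of the measured windows 17 were gained, or 17.7%, against 1.46% of the 774732 measured windows of all autosomes. With the interval chosen for its gains, nothing is read from that contrast. The count of windows lower by the mirrored rule was 0, against 0.0684% of all autosomal windows, and 61 windows differed by less than 10 points. The median difference of the 96 windows was 6.16 points, against 0.928 points for all measured autosomal windows.

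The gained windows fell into 3 stretches of 4 kb each, all downstream of a Gcnt2 start site, and 7 single windows. Most of the interval lies downstream of start 1, at base 40955137, so that placement alone says little. A stretch is a run of at least 2 gained windows with at most 1 other window between neighbours. The 3 stretches held 10 of the 17 gained windows and took up 8% of the interval. Stretches 1 and 2 lay 25 kb apart, and stretches 2 and 3 lay 2 kb apart.

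**Figure D1:**
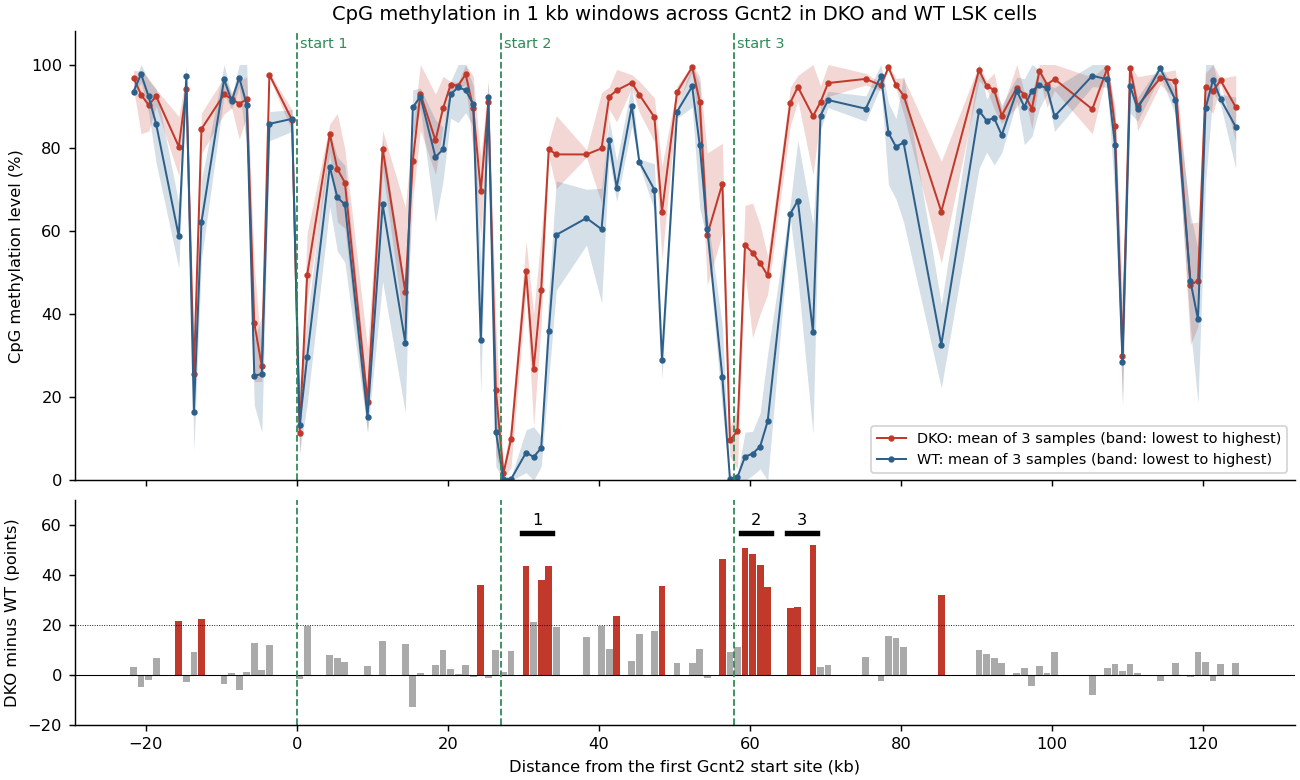
Mean CpG level in each measured 1 kb window (top, in percent; bands span the lowest to the highest of 3 samples) and the difference DKO minus WT (bottom, in percentage points; red bars are gained windows, the dotted line marks 20 points), by distance from the first Gcnt2 start site in kb; lines bridge windows with too few reads. Black bars mark stretches 1 to 3, and the dashed lines mark the 3 start sites, with stretch 1 after start 2 and stretches 2 and 3 after start 3.

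Stretch 1, chr13:40985001-40989000, began 2.87 kb and ended 6.87 kb downstream of start 2. Its 38 CpGs were at 42.2%, 60.4% and 51.0% in the DKO samples and at 15.6%, 14.7% and 8.02% in the WT samples. The lowest DKO sample was well above the highest WT sample, and the means differed by 38.4 ± 5.76 points (SE, n = 3 each; 122 to 212 reads per sample). Its 4 windows were not alike. The window at chr13:40986001-40987000, which has 7 CpGs, was at 12.8%, 40% and 27.3% in DKO and at 12.9%, 4.00% and 0% in WT, so DKO replicate 1 lay inside the WT range there. The last window, chr13:40988001-40989000, was at 79.6% ± 1.76 in DKO and 35.9% ± 10.5 in WT (SD, n = 3 each), on the rise towards more methylated sequence. In the 2 kb after stretch 1 the level was 83.7% ± 5.84 in DKO and 63.1% ± 9.55 in WT (SD, n = 3 each). The groups were apart there, on 39 to 134 reads per sample. In chr13:40989001-40990000 they overlapped, and chr13:40990001-40991000 had too few reads, so the far end of stretch 1 was not settled.

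Stretch 2, chr13:41014001-41018000, began 0.998 kb downstream of start 3 and showed the largest difference of the stretches. Its 58 CpGs were at 52.6%, 49.0% and 62.6% in the DKO samples and at 7.30%, 9.09% and 6.17% in the WT samples, a difference of 47.2 ± 4.15 points (SE, n = 3 each; 227 to 361 reads per sample). The groups were far apart, and the spread among DKO samples was larger than that among WT samples (SD 7.03 and 1.47 points). All 4 of its windows were gained. The window nearest the start, chr13:41014001-41015000, was at 50%, 53.5% and 66.1% in DKO and at 5.56%, 11.6% and 0% in WT. The farthest, chr13:41017001-41018000, was at 44.7%, 49.2% and 53.8% in DKO and at 0%, 12.2% and 30.4% in WT. The DKO means of the 4 windows stayed between 49.3% and 56.5%. Gm31683 is transcribed the opposite way from base 41013138, so the sequence from stretch 2 on also lies upstream of the Gm31683 start.

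Stretch 3, chr13:41020001-41024000, was partly methylated in WT and close to fully methylated in DKO. Its 46 CpGs were at 92.4%, 91.6% and 88.5% in the DKO samples and at 53.3%, 64.5% and 58.7% in the WT samples, a difference of 32.0 ± 3.45 points (SE, n = 3 each; 110 to 263 reads per sample). The DKO samples were close together and none reached down to the WT range. The window with the largest difference in the interval, chr13:41023001-41024000, lay at its far end, at 89.2%, 100% and 73.5% in DKO and at 11.1%, 61.5% and 34.3% in WT. With 11 CpGs and 26 to 65 reads per sample it was measured coarsely, and its WT samples were far from each other. In the 2 kb after it, the level was 93.6% ± 1.19 in DKO and 89.3% ± 1.20 in WT (SD, n = 3 each). Stretch 3 held 3 gained windows, and its remaining window, chr13:41022001-41023000, had too few reads to be measured (11 to 31 per sample).

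The 2 kb between stretches 2 and 3 had too few reads per window to be counted, with 30 to 111 reads in all per sample. They were at 63.1%, 75.4% and 87.1% in DKO and at 41.9%, 48.8% and 33.3% in WT. Summed over the 2 kb the DKO samples lay above the WT samples. In the first of the 2 windows, chr13:41018001-41019000, the groups overlapped, at 37.8%, 71.4% and 73.9% in DKO and at 30%, 43.2% and 0% in WT on 8 to 45 reads per sample. In the second, chr13:41019001-41020000, they were apart, at 80.3%, 81.8% and 94.9% in DKO and at 63.6%, 53.5% and 45.5% in WT on 11 to 66 reads. At this depth it was not settled whether stretches 2 and 3 are separate. The 95% Wilson interval of a single sample's level was at most 15.7, 12.3 and 17.6 points wide in stretches 1, 2 and 3. These intervals cover counting error only, and they are too narrow where CpGs share reads.

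At single CpGs the higher DKO level was spread over most of each stretch. With the reads of a group pooled and at least 5 reads per group, DKO was higher at 32 of 35 CpGs in stretch 1, at 50 of 53 in stretch 2 and at 26 of 33 in stretch 3. It was at least 20 points higher at 26, 44 and 20 of them. The stretches were defined by this gain and no share over all CpGs is given here, so nothing is read from these counts. In stretch 2 the median CpG was at 57.1% in DKO and 0% in WT, and 32 CpGs had no methylated read in WT against 2 in DKO. In stretch 1 the medians were 50% in DKO and 5.56% in WT. Most CpGs in these stretches were partly methylated in DKO, with 21 of 35 and 40 of 53 between 20% and 80%. In stretch 3 the median CpG was at 92.9% in DKO and 60% in WT. Neighbouring CpGs share reads and are not independent.

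**Figure D2:**
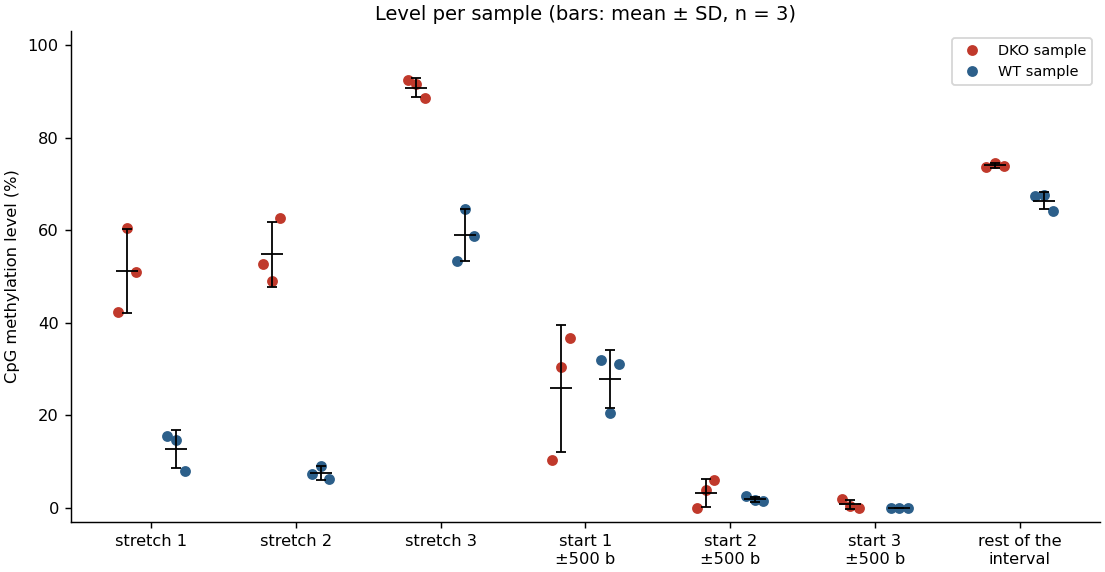
CpG level in percent of each DKO sample (red) and WT sample (blue) in the 3 stretches, within 500 bases either side of the 3 start sites and in the interval without the stretches; black marks give the mean ± SD of 3 samples. The groups are apart in the stretches and in the rest of the interval and overlap at all 3 start sites.

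At the start sites themselves, with 500 bases either side, the groups overlapped. Within 500 bases either side of start 3 the level was 1.89%, 0.379% and 0% in DKO and 0% in each WT sample. In the printed sequence of start 3 itself 0 methylated reads were counted in 31 to 73 reads per sample, summed over its 13 CpGs. If these counts were independent, they would allow a level of up to 4.11% to 9.68%. A read that covers several of these close CpGs is counted at each, so the true limit is wider. Around start 2 the level was 0%, 3.76% and 5.98% in DKO and 2.47%, 1.61% and 1.47% in WT, and the groups overlapped. Around start 1 it was 10.4%, 30.3% and 36.6% in DKO and 31.9%, 20.5% and 31.1% in WT. The groups overlapped there as well, with a difference of -2.05 ± 8.70 points (SE, n = 3 each). With that SE, a difference of 20 points either way, the limit of the gained rule, could have been missed. In the printed sequence of start 2 the level was 0%, 22.6% and 17.4% in DKO and 9.52%, 0% and 7.14% in WT, with overlap. From 0.5 to 1 kb upstream the groups were apart at start 3, at 22.6% ± 7.09 in DKO and 0.901% ± 1.56 in WT (SD, n = 3 each). They were also apart at start 2, at 17.3% ± 7.80 and 2.22% ± 3.85 on 6 to 15 reads per sample, and overlapped at start 1.

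In the 2 kb before stretches 1 and 2 the DKO samples were slightly methylated, DKO replicate 3 the least. In the 2 kb before stretch 1 the level was 11.0%, 15.4% and 2.72% in DKO and 0.685%, 0% and 0% in WT. In the 2 kb before stretch 2, which lie on both sides of start 3, it was 14.0%, 15.8% and 3.91% in DKO and 0.847%, 0.457% and 0.420% in WT. The upstream part, chr13:41012001-41013000, was at 10.4%, 12.6% and 5.69% in DKO and at 0%, 0% and 1.28% in WT. The groups did not overlap in either place, and DKO replicate 3 was the closest to WT in both. The differences were 9.46 and 10.6 points. With each sample's level corrected by its mitochondrial level, a correction chosen after these values were seen, they were 9.17 and 10.4 points, and the groups remained apart.

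**Figure D3:**
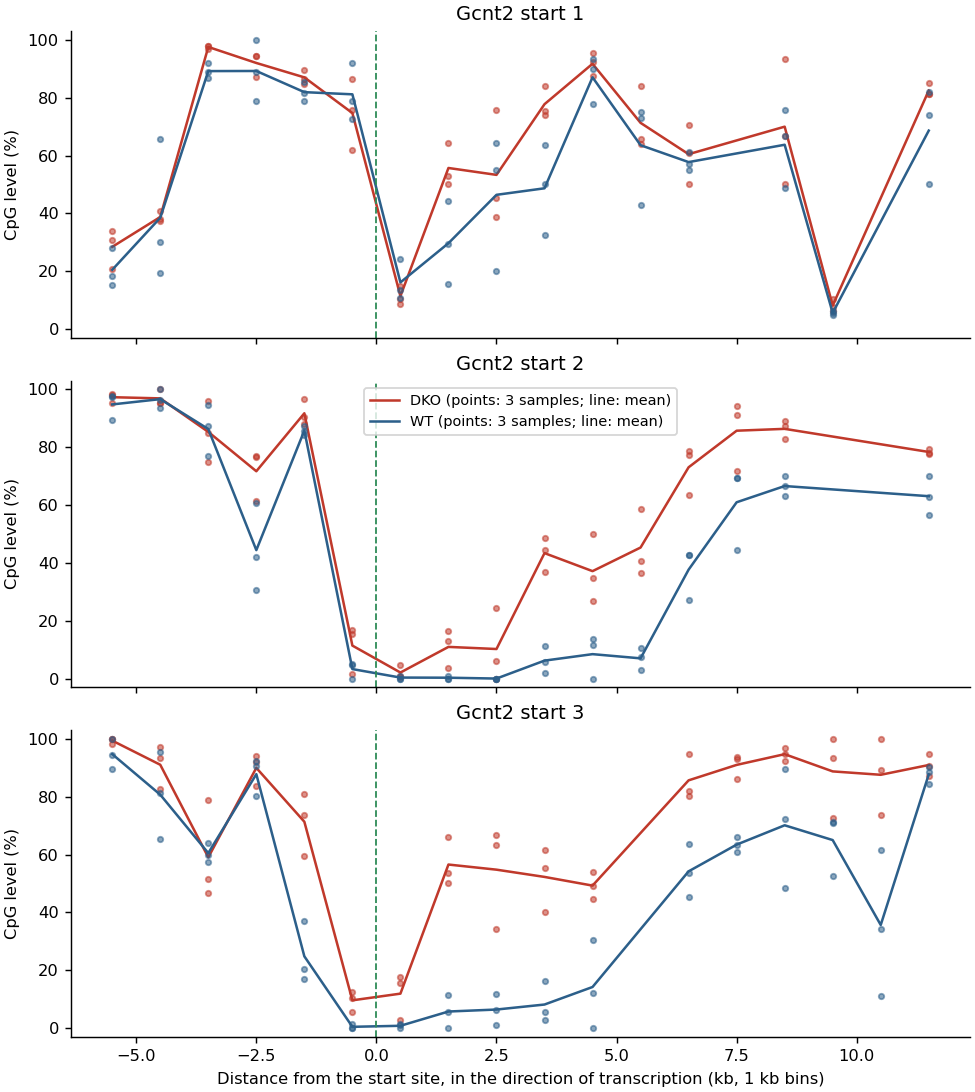
CpG level in percent in 1 kb bins around each Gcnt2 start site, by distance in kb in the direction of transcription; points are the 3 samples of each group, lines the group means, and bins with fewer than 10 reads in any sample are left out. Downstream of starts 2 and 3 the DKO line leaves the low zone earlier than the WT line. At start 1 the lines run close together over the low window. Past it the groups are apart at 1 to 2 kb (means 55.7% in DKO, 29.7% in WT) and at 3 to 4 kb (77.8%, 48.7%), and overlap at 2 to 3 kb.

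The low zone around starts 2 and 3 was narrower in DKO. Adjacent 1 kb windows below 20% around start 2 covered 4, 2 and 3 kb in the DKO samples and 7, 7 and 7 kb in the WT samples. Around start 3 they covered 2, 2 and 2 kb in DKO and 7, 6 and 5 kb in WT. The widths did not overlap between the groups at either start. The WT zones reach into stretches 1 and 2, so this repeats the gain for which the place was chosen, and widths at other promoters are not given. At start 2 the window at chr13:40984001-40985000 was used although it had too few reads (14 to 53 per sample). With DKO replicate 2 at 24.5% there, it set the end of the zone in that sample. At start 2 the zone ended at bases 40985000, 40984000 and 40985000 in DKO and at 40988000 in all 3 WT samples, and it began at 40981001 in DKO replicate 1 and all WT samples and at 40982001 in DKO replicates 2 and 3. At start 3 it began at base 41012001 in all 3 DKO samples and in WT replicates 2 and 3, and at 41011001 in WT replicate 1. Its end there was base 41014000 in all 3 DKO samples and 41018000, 41018000 and 41017000 in WT. At start 1 the zone was 1, 1 and 1 kb in DKO and 0, 1 and 2 kb in WT.

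In the flanks from 1 to 6 kb the DKO mean was higher at all 3 starts and on both sides, by different amounts. Downstream of start 3 the level was 50.3%, 51.0% and 63.4% in DKO and 9.09%, 13.3% and 5.96% in WT. Upstream of it the level was 82.2% ± 6.47 in DKO and 64.5% ± 9.16 in WT (SD, n = 3 each), and that flank holds the single gained window at chr13:41011001-41012000. Downstream of start 2 the level was 24.7%, 28.2% and 16.7% in DKO and 4.80%, 4.81% and 0.855% in WT, and upstream of it 90.2% ± 3.62 in DKO and 83.5% ± 5.41 in WT, where the groups overlapped. Downstream of start 1 it was 70.8% ± 4.17 in DKO and 55.8% ± 3.22 in WT, with the groups apart, so that flank was higher in DKO and not low in WT. Upstream of start 1 it was 61.4%, 63.0% and 67.4% in DKO and 46.6%, 57.6% and 57.8% in WT, and there too the groups were apart, by 9.95 points.

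Other promoters were set beside starts 2 and 3 for description. Of the RefSeq promoter sequences with at least 6 CpGs, 18242 were placed on mm9 in the same way. Of these, 13484 autosomal start sites had a WT level under 20% within 500 bases and enough reads in the flanks on both sides. The downstream flank was gained in 0.341% of them and the upstream flank in 0.237%. Start 1 is not among them, with 27.8% in WT at the start. The median downstream flank had a WT level of 85.1%, and the median difference was 1.75 points. A downstream flank below 10% in WT, as at Gcnt2 starts 2 and 3, was found at 265 start sites of 210 genes, 1.97% of the 13484. The gained rule was met by 0.377% of those 265, which is start 3 alone. Among the 265, the difference at start 3 (45.5 points) ranked 1 and that at start 2 (19.7 points) ranked 2, and the largest difference among the other 263 was 19.0 points. Among all 13484, start 3 ranked 1 and start 2 ranked 52. The downstream flanks of starts 2 and 3 hold most of stretches 1 and 2. Their ranks therefore repeat the gain for which the place was chosen and carry no test.

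The CpG density of these flanks lay near that of all flanks and below that of most flanks chosen by their low WT level. The downstream flanks of starts 2 and 3 held 12.2 and 14.6 CpGs per kb. The median was 30.4 per kb for the 265 low flanks and 11.0 per kb for all 13484 flanks. Only 4 of the 265 were poorer in CpGs than that of start 2, and 15 were poorer than that of start 3. Among the 17 low flanks with at most 15 CpGs per kb, start 3 was the 1 gained flank (5.88%), and the median difference was 1.78 points. The 17 include both Gcnt2 flanks.

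Within the interval gained and little changed windows were close in density. Gained windows held a median of 12 CpGs (9 to 18), and windows that differed by less than 10 points held 13 (6 to 31). The median distance to the next CpG was 53 bp and 43 bp. The sign of the difference in CpG number depended on how windows were drawn, as given in the closing section. Of 10 measured windows with more than 20 CpGs, 0 were gained, against 1.37% of such windows on all autosomes, so a count of 0 says little about dense windows. Their WT levels ranged between 0.253% and 96.8%. Over all autosomes gained windows held a median of 13 CpGs and little changed windows 12. Stretches 1, 2 and 3 held 9.50, 14.5 and 11.5 CpGs per kb, against 12.1 for the whole interval.

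The classes differed in WT level, in part because of how they were defined. Gained windows had a median WT level of 32.6% and little changed windows one of 89.5%, where a window can gain little. The median WT level of the 96 measured windows was 81.0%, which is already too high to meet the gained rule. Part of this contrast, and of the shares by WT level below, is therefore fixed by the rule. Density has no such bar, so WT level and density are not ranked against each other. Of the 28 measured windows below 50% in WT, 12 were gained, or 42.9%, against 9.47% of such windows on all autosomes. Of the 68 windows at 50% or more, 5 were gained, or 7.35%, against 0.759%. A low WT level was not enough for a gain. The other 16 windows below 50% in WT were not gained, and 10 of them lay outside the low zones around starts 2 and 3. These 16 windows held a median of 16 CpGs (7 to 37), against 12 (10 to 16) in the 12 gained windows below 50%.

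**Figure D4:**
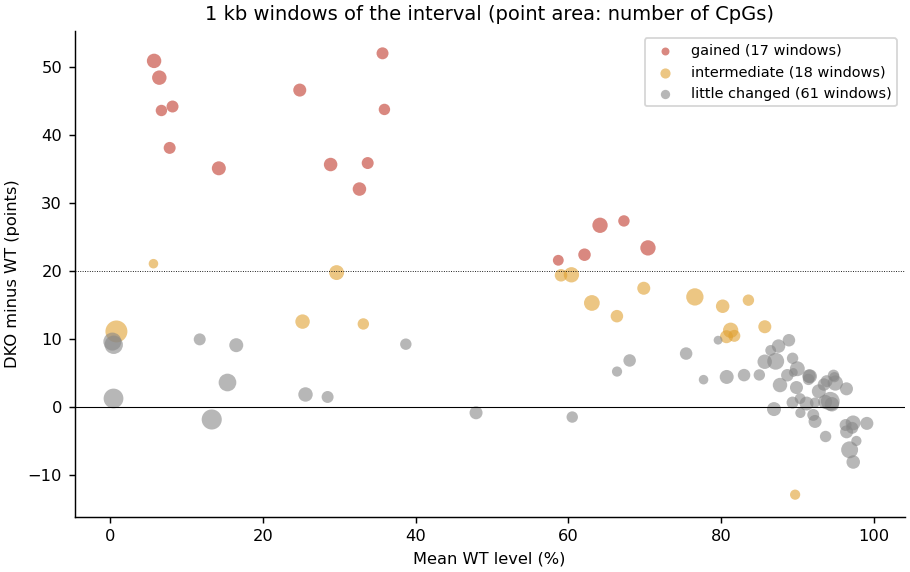
Difference DKO minus WT in percentage points against the mean WT level in percent for the 96 measured 1 kb windows; point area gives the number of CpGs, colour the class, and the dotted line marks 20 points. Windows with a low WT level are found both among the 17 gained windows and among the 61 little changed ones.

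In several of these low windows the means of the groups were close and the samples overlapped. The window of start 1, chr13:40955001-40956000, was at 5.77%, 14.3% and 14.3% in DKO and at 23.7%, 6.72% and 9.40% in WT, with 31 CpGs and 112 to 312 reads. The window at chr13:40964001-40965000, with 24 CpGs, was at 11.5%, 31.8% and 13.5% in DKO and at 20.6%, 13.8% and 11.6% in WT. The window at chr13:41064001-41065000 was at 44.4%, 27.8% and 17.6% in DKO and at 31.5%, 35.0% and 18.9% in WT. The difference was 1.87 points at chr13:40950001-40951000 and -0.819 at chr13:41073001-41074000, with overlap. Elsewhere the DKO mean was higher by more, also with overlap. The difference was 12.6 points at chr13:40949001-40950000, 12.2 at chr13:40969001-40970000, 9.25 at chr13:41074001-41075000 and 9.10 at chr13:40941001-40942000. The window just past start 1, chr13:40956001-40957000, came nearest to the rule among windows with groups apart, at 43.0%, 59.5% and 45.7% in DKO and 38.7%, 31.9% and 18.3% in WT, a difference of 19.8 points. Just inside the rule were chr13:40939001-40940000 with 21.6 points and chr13:40942001-40943000 with 22.4 points.

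The 7 single gained windows were spread over the rest of the locus. The window at chr13:41011001-41012000, on the upstream side of start 3, was at 59.5%, 81.1% and 73.5% in DKO and at 16.9%, 36.9% and 20.6% in WT, a difference of 46.5 ± 8.82 points (SE, n = 3 each). Upstream of start 2, chr13:40979001-40980000 was at 77.8%, 72.5% and 58.3% in DKO and at 52.2%, 28.0% and 20.9% in WT. Its highest WT sample lay close to its lowest DKO sample. Between starts 2 and 3, chr13:41003001-41004000 was at 64.7%, 75.6% and 53.1% in DKO and at 30.0%, 24.4% and 32.1% in WT, and chr13:40997001-40998000 was at 93.8% ± 6.71 in DKO and 70.4% ± 5.55 in WT (SD, n = 3 each). The farthest downstream, chr13:41040001-41041000, was at 65.0%, 76.7% and 52.2% in DKO and at 42.3%, 22.2% and 33.3% in WT. The other two were upstream of start 1, 15.6 and 12.6 kb away.

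With the 3 stretches taken out, the interval remained more methylated in DKO, at 73.6%, 74.6% and 73.9% against 67.3%, 67.7% and 64.2% in WT. The groups did not overlap, and the difference was 7.63 ± 1.14 points (SE, n = 3 each). The 25 kb between stretches 1 and 2 contributed to this, with 70.6% ± 2.86 in DKO and 56.4% ± 3.02 in WT (SD, n = 3 each). Of the 96 measured windows, 79 had the higher mean in DKO and 17 in WT, 33 had non-overlapping groups with DKO on top, and 0 had the reverse. Over all autosomes 58.2% of measured windows had the higher mean in DKO, 9.05% had groups apart with DKO on top and 3.75% had the reverse; the interval was chosen for its gains, so nothing is read from the contrast. The largest negative difference, in a window chosen after its values were seen, was -12.8 points at chr13:40970001-40971000, at 67.6%, 84.4% and 78.6% in DKO and 92.3%, 93.9% and 82.9% in WT, where the groups overlapped.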

How the data were processed

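Whole-genome bisulfite libraries of 3 DKO and 3 WT samples were analysed. The authors deposited 1 table that gives, for each CpG and sample, counts of methylated reads and of all reads, without normalisation or pooling. The submitters' processing notes name BSMAP 2.74 and mm9; the sources used here do not give read filters or duplicate removal. The table had 0 duplicate CpGs, 0 rows not 2 bp wide, 0 methylated counts above the total and 0 columns of other samples. Its start column was taken as counting from 0, and positions are printed from 1. Reads were summed over windows and regions with Python 3.11.15, numpy 2.4.6 and pandas 2.3.3. No test was run, because the interval was chosen on this contrast. The members, class limits and flanks were chosen with earlier results of these data known. Named by rule were gained windows, the windows beside a stretch and low WT windows, some only by their range; the window with the largest negative difference was chosen after its values were seen. A promoter was placed where at least 80% of its CpGs, and at least 6, were listed at the right distances with no extra CpG, at 1 place on its chromosome. Alternatives covered read minima, limits, window size, CpG weights, conversion and omitted samples.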

Additional observations from a re-analysis of the deposited data

How the results depend on the processing

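Leaving out each sample in turn, the difference (DKO minus WT) was 33.8 to 42.9 points in stretch 1, 43.3 to 50.1 in stretch 2, 29.2 to 34.8 in stretch 3, 9.56 to 11.1 over the whole interval and 6.53 to 8.27 outside the stretches; the choice of the place fixes the sign of the stretches. Under 5 other ways of weighting or filtering CpGs the ranges were 36.9 to 40.3, 47.6 to 50.3, 26.6 to 33.4, 10.6 to 11.5 and 7.44 to 8.26 points, with the groups apart in each. The value of 26.6 points in stretch 3 came from counting every CpG with a read in all samples equally, and moved by more than the replicate SD; the cause was not tested. Against 17 gained windows, a minimum of 40 reads left 34 measured windows and 6 gained, with none in stretch 1. A limit of 10 points gave 26, 500 bp windows gave 27, the 5 other settings gave 12 to 24, and leaving out a sample gave 17 to 20. The median CpG number of gained minus little changed windows (-1) turned to 0.5 with 40 reads, 2 with windows shifted by 500 bp, 2 per kb with 500 bp windows and 1.5 per kb with 2 kb windows, and ranged from -1 to 1 with a sample left out, being 1 without WT replicate 3; no direction is drawn from it. No paired analysis was possible because no test was run and no label ties a DKO replicate number to the same WT number. Depth limits single windows, 53 of which could not be measured.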
